A study of Mus musculus with 7 samples.

Results

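The genes described here encode 9 enzymes that make NADPH or belong to the pentose phosphate pathway: Pgls, Pgd, Rpia, Rpe, Tkt, Taldo1, Me1, Idh1 and Idh2. They were taken by symbol from the 46603 gene rows of the deposited tables, and all 9 were found and passed the filter on low counts. All 7 libraries are of TRAMP-C1 cells, grown from a prostate tumour of a C57BL/6-TgN(TRAMP)8247Ng mouse, so each of them carries the TRAMP transgene. Cells of 3 libraries received a lentivirus with the PAX8-NFE2L2 fusion gene (PAX8-NFE2L2 fusion+), and cells of 3 libraries received the matching empty vector. A single library is named WT and its label gives no vector. Per the labels' protocols, fresh medium followed 12 h of virus and cells grew for another 24 h before polyadenylated RNA was isolated. The virus reached the cells in culture wells and no label says that transduced cells were selected or that replicates came from separate cultures. The p-values therefore reflect no more than how far these libraries scatter, and that scatter may be technical.

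The pentose phosphate pathway branches off glycolysis at glucose 6-phosphate. Its oxidative branch includes the lactonase PGLS and the dehydrogenase PGD, which forms NADPH, and ends in a pentose phosphate. The non-oxidative branch interconverts pentose phosphates through RPIA and RPE and returns carbon to glycolysis through transketolase and transaldolase. Malic enzyme ME1 and isocitrate dehydrogenase IDH1 make NADPH in the cytosol, while IDH2 is the mitochondrial relative of IDH1. NADPH feeds glutathione and thioredoxin reductases and lipid synthesis. NFE2L2 encodes NRF2, a transcription factor that binds antioxidant response elements together with small MAF proteins, and several of these 9 genes are textbook NRF2 targets. PAX8 is a DNA-binding protein that shapes the thyroid and the kidney.

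Reads assigned to genes came to between 26368182 and 59597170 in a library, least in fusion replicate 3. Levels are given in CPM, the counts of a gene relative to the size of its library, with sizes scaled by TMM, a method that rests on most genes not differing. Pax8 was highest in the fusion libraries (6.4, 8.53 and 5.57 CPM), against 0.0334, 0.0358 and 0.217 CPM with empty vector and 0.0401 CPM in the WT library. Nfe2l2 lay at 111 to 125 CPM with empty vector and at 123 to 145 CPM with the fusion. Of 9 prostate epithelial markers, Krt5, Krt14, Epcam and Pbsn stayed under 1 CPM in every library. Krt18 rose from 0.418 to 1.44 CPM with empty vector to 4.23 to 8.06 CPM with the fusion (edgeR adjusted p = 0.03, a call kept in 2 of 6 fits with a library removed), Krt8 had a log2 fold change of -0.04, and the summed level of the 9 was 93 to 112 and 115 to 153 CPM. All 8 fibroblast and mesenchymal markers lay above 1 CPM. Their summed level was 12576 to 18341 CPM with empty vector and 9892 to 15329 CPM with the fusion, and the part of either list in the results was not tested. The third replicate of each group was sequenced in lane 1 or 2, and the rest in lanes 5 and 6.

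The promoters were read first, since they show which members carry letters of an antioxidant response element near a listed transcription start. The core TGACNNNGC was searched on both strands from 250 bases before to 50 bases after each RefSeq start (GRCm38.p6), as was the looser form TGANNNNGC, which includes the core. All 9 members matched by symbol, with 12 windows. The core stood in 2 of these 12 windows (Me1 and Pgd), against 12.4% of all 32851 windows. The looser form stood in 6 of the 12, against 41.3% of all windows, and the genes with neither were Pgls, Rpia and Rpe. The stretches printed below hold both core matches and the looser match of Taldo1, each 5′ to 3′ on the strand of its gene with the match in capitals. A match is a run of letters and no measurement of binding.
Me1 (chr9:86695904-86695960, minus strand): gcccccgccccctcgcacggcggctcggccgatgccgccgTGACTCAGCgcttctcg
Pgd (chr4:149166063-149166119, minus strand): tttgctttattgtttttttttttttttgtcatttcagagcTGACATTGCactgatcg
Taldo1 (chr7:141391910-141391955, plus strand, looser form): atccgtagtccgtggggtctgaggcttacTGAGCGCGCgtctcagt
Counted from the start, with negative positions before it, the match of Taldo1 lay at -221 to -213. In Me1 it ran across the start, from -6 to 3. In Pgd it lay at 4 to 12 of the second of 2 listed starts, and the window of the other start held neither form. That second start, at chr4:149166082, lies inside the annotated gene, which begins at 149166771 on the minus strand. The core match of Pgd is therefore not at the annotated beginning of the gene.

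The question of the series is what the fusion changed relative to empty vector. Taldo1 was the member that rose in the comparison of the 3 fusion with the 3 empty vector libraries (edgeR, quasi-likelihood F test, p adjusted by Benjamini-Hochberg over 16731 genes, threshold 0.05). So 1 of 9 members rose and 0 fell, against 1.69% of all tested genes that rose and 0.353% that fell. At an unadjusted p under 0.05 there were 3 members, against 10.9% of all tested genes. Deviations from the group means correlated between fusion and empty vector libraries of the same replicate number, so the numbers were taken to pair the samples. In the fit with the number as a block, 5 members rose (Pgd, Tkt, Taldo1, Me1 and Idh1) and 0 fell, against 7.63% and 5.5% of all tested genes. DESeq2 without the block called Pgd, Taldo1 and Idh1 higher and 0 members lower, against 3.72% and 1.79% of all tested genes. Of the 9 members, 5 were higher with the fusion in 3 of 3 numbers, against 27.8% of tested genes, and 1 was lower (Pgls), against 24.6%. These 5 are the same members that the block called. The block compares libraries within numbers, so their shared direction is no separate support for its calls. In 4 members every fusion library lay above every empty vector library (Pgd, Tkt, Taldo1 and Idh1), against 9.15% of tested genes, and in Pgls every fusion library lay below, against 6.65%. The median log2 fold change of the 9 was 0.42, and that of all tested genes was 0.01.

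The block count moved most with number 2. With number 2 left out of both groups the block called 2 members, Taldo1 and Idh1. With number 1 left out it called 3 (Pgd, Taldo1 and Idh1), and with numbers 1 and 2 alone, which share their lanes, it called 5. The shares of all tested genes called in these reduced fits are not given here. The counts therefore do not tell whether the members moved more than other genes.

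**Figure D1:**
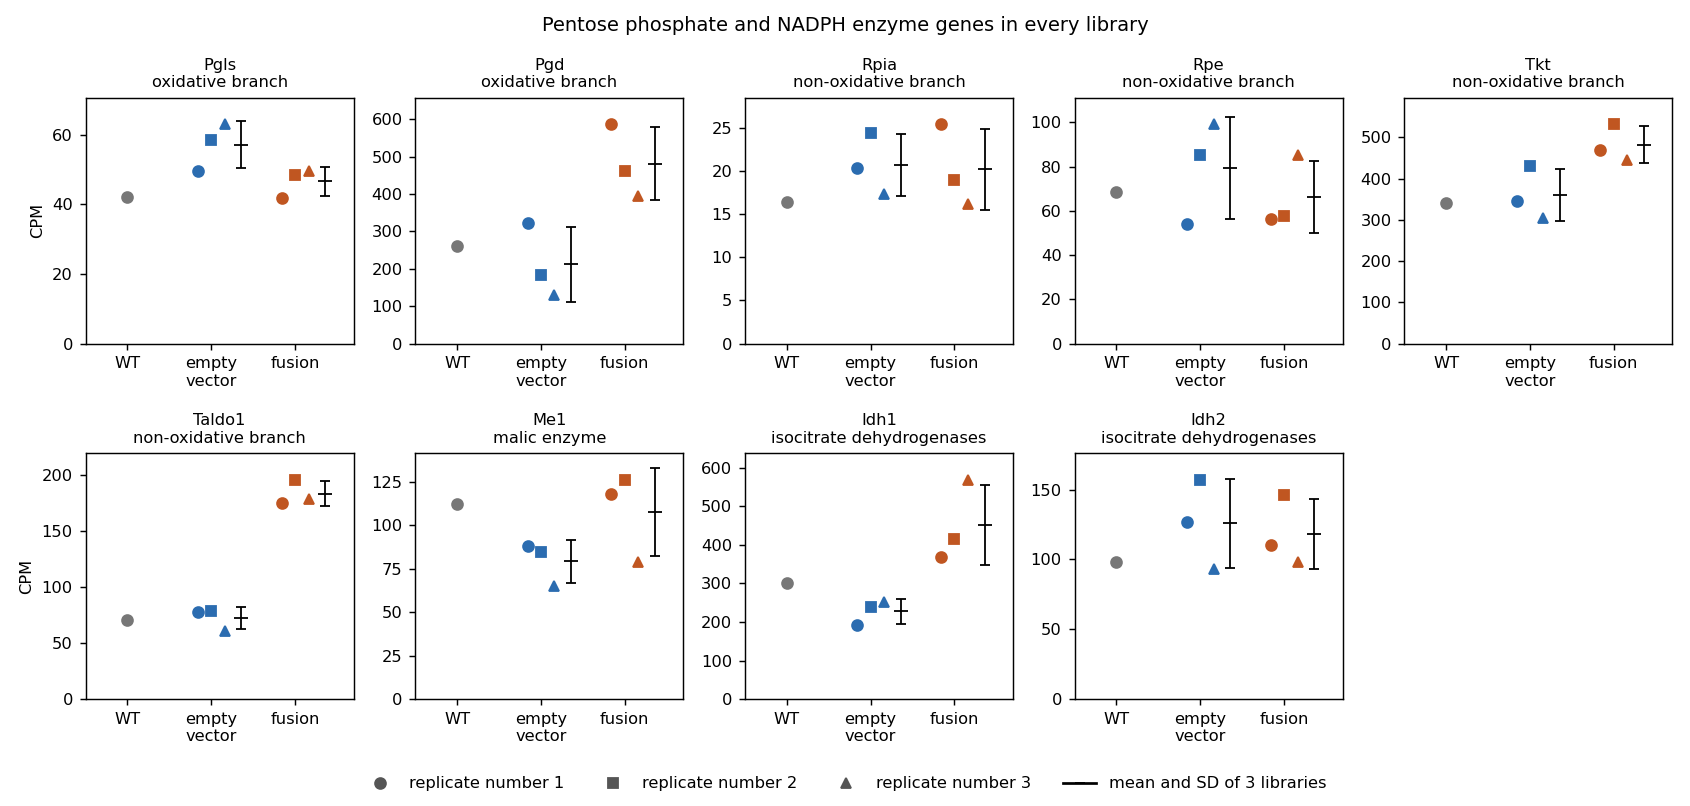
CPM of each member gene (y axis, from 0) in the WT library and the 3 empty vector and 3 fusion libraries, with the shape giving the replicate number and the bar the mean and SD of 3 libraries. Taldo1 shows the widest gap between groups for its spread, with 61.1 to 78.7 CPM against 175 to 196 CPM, while Rpia, Rpe and Idh2 overlap throughout.

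In the oxidative branch, Pgd was higher with the fusion in every library and Pgls was not. Pgd, 6-phosphogluconate dehydrogenase (ENSMUSG00000028961.14, chr4:149149991-149166771, GRCm38, minus strand), lay at 323, 183 and 129 CPM in the empty vector libraries, in the order of their replicate numbers. It lay at 587, 463 and 394 CPM in the fusion libraries, which left a gap between the groups although the empty vector libraries spread widely. Means were 211 ± 100 and 481 ± 97.7 CPM (SD, n = 3 each), and the log2 fold change was 1.19 (SE 0.35, 95% interval 0.39 to 1.98, edgeR adjusted p = 0.18). With the block it was 1.27 (SE 0.15, adjusted p = 0.0069), since replicate 1 was highest and replicate 3 lowest in both groups. DESeq2 gave an adjusted p of 0.026. Without empty vector replicate 1, the highest of its group, Pgd passed without the block as well (1.63, edgeR adjusted p = 0.038). It passed in only 1 of the 6 fits with a library left out, and the highest adjusted p was 0.52. The block call ended with number 2 left out (adjusted p = 0.073).

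Pgls, 6-phosphogluconolactonase (ENSMUSG00000031807.9, chr8:71592176-71601092, plus strand), lay at 49.7, 58.5 and 63 CPM with empty vector. It lay at 41.9, 48.5 and 49.6 CPM with the fusion, just below the empty vector range in every library. It missed the threshold at a log2 fold change of -0.29 (95% interval -0.73 to 0.15, edgeR adjusted p = 0.75, and 0.065 with the block). Its exons share 776 bases with Fam129c on the same strand, a gene at 1.25 to 2.38 CPM with empty vector and 0.686 to 0.97 CPM with the fusion (-1.22, edgeR adjusted p = 0.18, and 0.031 with the block). The ratio of Pgd to Pgls within a library was 6.49, 3.13 and 2.04 with empty vector and 14, 9.55 and 7.95 with the fusion, a mean 2.95-fold difference.

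In the non-oxidative branch, transaldolase rose with the fusion in both fits, transketolase with the block alone, and the isomerase and epimerase gave no call in either fit. Taldo1, transaldolase (ENSMUSG00000025503.4, chr7:141392199-141402968, plus strand), lay at 78, 78.7 and 61.1 CPM with empty vector. It lay at 175, 196 and 179 CPM with the fusion, far above the empty vector range in every library. The log2 fold change was 1.34 (SE 0.19, 95% interval 0.90 to 1.78, a 2.53-fold rise, edgeR adjusted p = 0.012), and 1.34 with the block (adjusted p = 0.00097). The ratios by number were 2.24, 2.49 and 2.93. Without the block the call ended when empty vector replicate 2 (adjusted p = 0.065) or fusion replicate 2 (0.06) was left out, and the log2 fold change stayed between 1.23 and 1.40 over the 6 fits that left out a library.

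Tkt, transketolase (ENSMUSG00000021957.6, chr14:30548359-30574720, plus strand), lay at 346, 430 and 305 CPM with empty vector. It lay at 469, 532 and 445 CPM with the fusion, so the groups came close without overlapping. The log2 fold change was 0.42 (SE 0.21, 95% interval -0.06 to 0.89, edgeR adjusted p = 0.56), and 0.43 with the block (SE 0.08, adjusted p = 0.022). The block call ended with number 1 (adjusted p = 0.11) or number 2 (0.12) left out. Both genes were highest in replicate 2 in each group.

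Rpia, ribose 5-phosphate isomerase (ENSMUSG00000053604.5, chr6:70765720-70792232, minus strand), lay at 20.3, 24.4 and 17.3 CPM with empty vector and at 25.4, 18.9 and 16.2 CPM with the fusion. Its groups overlapped and the ratio by number was above 1 in 1 of 3. The log2 fold change of -0.03 had a 95% interval of -0.60 to 0.53, and with the block of -0.41 to 0.31. Rpe, ribulose 5-phosphate 3-epimerase (ENSMUSG00000026005.14, chr1:66700831-66719805, plus strand), lay at 54, 85.3 and 99.1 CPM with empty vector and at 56.3, 57.6 and 85.2 CPM with the fusion. Replicate 3 was highest in both groups and the groups overlapped (log2 fold change -0.26, 95% interval -0.91 to 0.39, edgeR adjusted p = 0.92). Exons of Kansl1l on the other strand cover 558 of its 3113 exon bases. Kansl1l lay at 21.7 to 35.4 CPM with empty vector and 20.2 to 39.5 CPM with the fusion.

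Me1, cytosolic malic enzyme (ENSMUSG00000032418.14, chr9:86581371-86695953, minus strand), which turns malate into pyruvate, lay at 88, 84.6 and 64.8 CPM with empty vector. It lay at 118, 126 and 78.7 CPM with the fusion, where replicate 3 fell inside the empty vector range. The log2 fold change was 0.44 (SE 0.24, edgeR adjusted p = 0.62), and 0.43 with the block (SE 0.09, adjusted p = 0.025). Of the 50-base stretches of its transcripts 28.3% recur in transcripts of other genes, mostly Gm7049 and Gm48795. Reads from them align to more than 1 place and were not counted under a gene, so the level of Me1 is a lower estimate.

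Of the isocitrate dehydrogenases, Idh1 rose with the block and Idh2 gave no call in either fit. Idh1, the cytosolic enzyme (ENSMUSG00000025950.15, chr1:65158616-65186500, minus strand), lay at 192, 239 and 253 CPM with empty vector. It lay at 369, 416 and 569 CPM with the fusion, with no overlap and the highest value in replicate 3 of either group. The log2 fold change was 0.98 (SE 0.23, 95% interval 0.45 to 1.52, edgeR adjusted p = 0.094), 0.97 with the block (SE 0.10, adjusted p = 0.0027), and DESeq2 gave an adjusted p of 0.0064. Idh2, the mitochondrial enzyme (ENSMUSG00000030541.15, chr7:80094846-80115392, minus strand), lay at 127, 157 and 93.4 CPM with empty vector and at 110, 146 and 98.2 CPM with the fusion. These ranges overlapped, and the log2 fold change was -0.09 (95% interval -0.67 to 0.49, and -0.29 to 0.12 with the block). The intervals of Idh1 and Idh2 overlapped without the block and did not overlap with it.

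**Figure D2:**
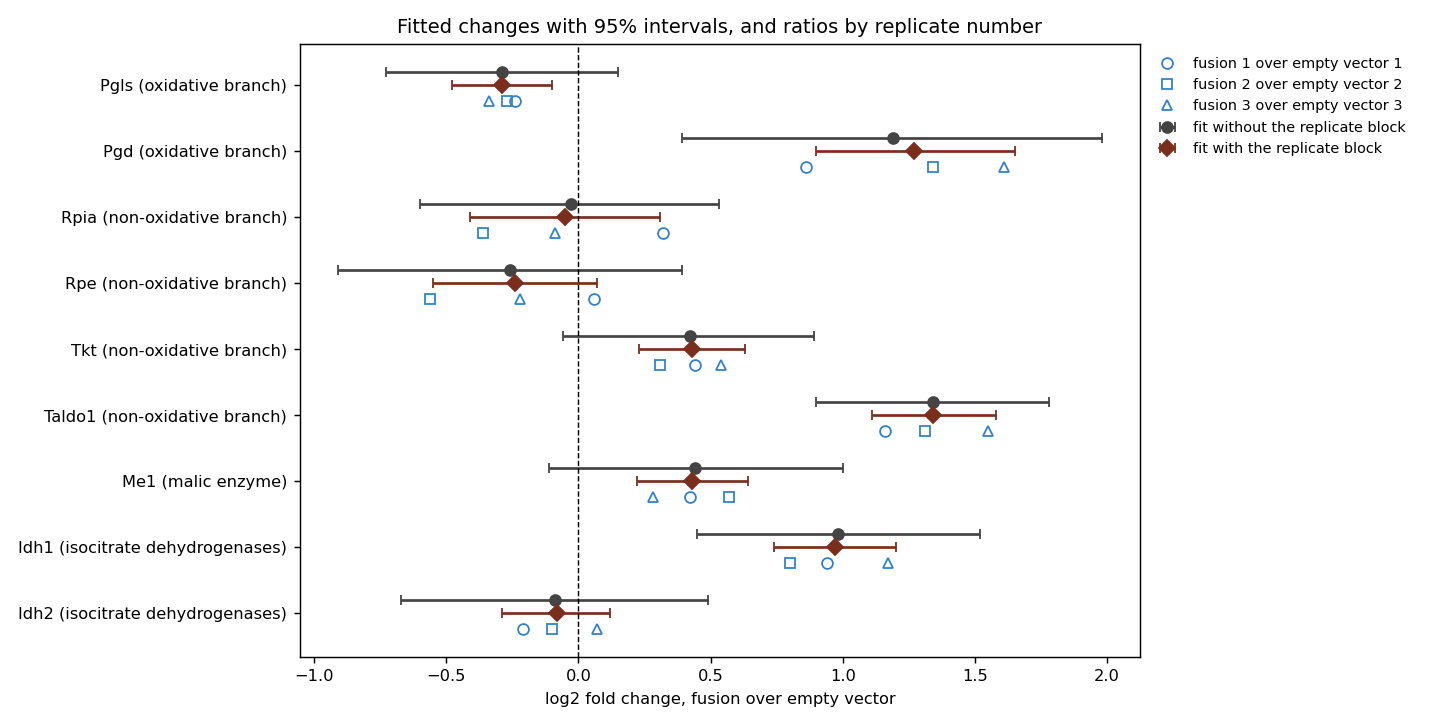
Log2 fold change of each member (x axis), fusion over empty vector, from the fit without (circles) and with the replicate block (diamonds), with 95% intervals, and the ratio of the libraries of each number (open symbols). Both fits place each gene alike, the intervals narrow with the block, and the 3 ratios of Pgd, Tkt, Taldo1, Me1 and Idh1 all lie above 0.

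Ratios between members within a library do not depend on library scaling, and 3 were taken after their values were seen. Idh1 to Idh2 was 1.51, 1.53 and 2.7 with empty vector and 3.37, 2.84 and 5.8 with the fusion, a mean 2.07-fold difference. Taldo1 to Tkt was 0.225, 0.183 and 0.2 with empty vector and 0.372, 0.369 and 0.403 with the fusion, 1.89-fold apart. In all 3 ratios, Pgd to Pgls included, no fusion library overlapped an empty vector library. The WT library, without the fusion, had an Idh1 to Idh2 ratio of 3.04, above all empty vector libraries and inside the fusion range. Its ratios of Taldo1 to Tkt (0.208) and Pgd to Pgls (6.17) lay inside the empty vector range. Since the ratios were chosen on these values, no test is given.

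**Figure D3:**
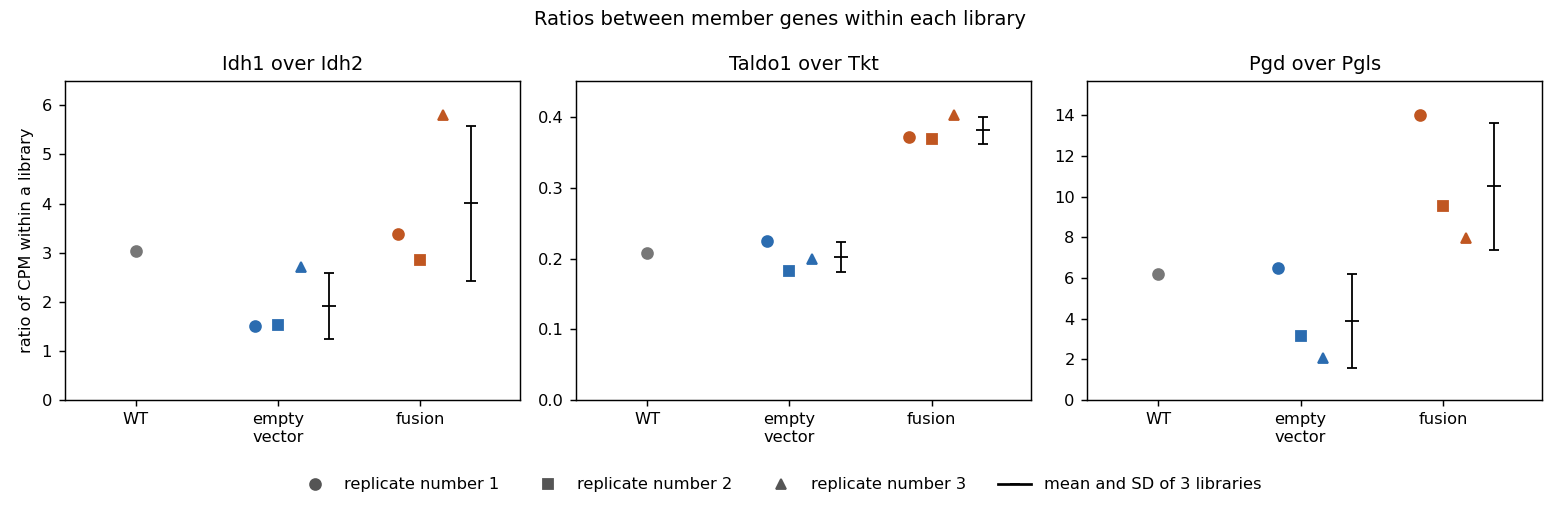
Ratio of CPM between pairs of members within each library (y axis, from 0), with the shape giving the replicate number and the bar the mean and SD of 3 libraries. The fusion libraries lie above all empty vector libraries in each panel, and Taldo1 over Tkt shows the tightest groups, at 0.183 to 0.225 and 0.369 to 0.403.

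Levels of different genes were compared per length, as RPKM over the union of exons. With empty vector the order was Idh1 (82.3 ± 11.4 RPKM), Tkt (49 ± 8.68), Idh2 (48.6 ± 12.2), Taldo1 (33.4 ± 4.59), Pgd (32.8 ± 15.5), Rpe (25.5 ± 7.42), Me1 (20.6 ± 3.26), Pgls (15.1 ± 1.8) and Rpia (3.86 ± 0.659 RPKM, SD, n = 3 each). The library ranges of neighbours in this order overlapped from Tkt down to Me1. Idh1 stood apart at the top, and Pgls and Rpia at the bottom. With the fusion Idh1 stayed first (163 ± 37.8 RPKM) and Taldo1 came second (84.5 ± 5.2), ahead of Pgd (74.7 ± 15.2) and Tkt (65.5 ± 6.14). The ranges of Taldo1 and Pgd overlapped, as did those of Pgd and Tkt. Idh2 (45.6 ± 9.69) followed, then Me1 (28 ± 6.59), Rpe (21.3 ± 5.24), Pgls (12.4 ± 1.1) and Rpia (3.76 ± 0.884 RPKM). Ranges of Me1 and Rpe overlapped with the fusion as well. The order depends on the length used: per longest annotated transcript, Tkt came ahead of Idh1 with empty vector, at 112 and 99.1 RPKM, and with the fusion Tkt (150 RPKM) came ahead of Taldo1 (135 RPKM).

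**Figure D4:**
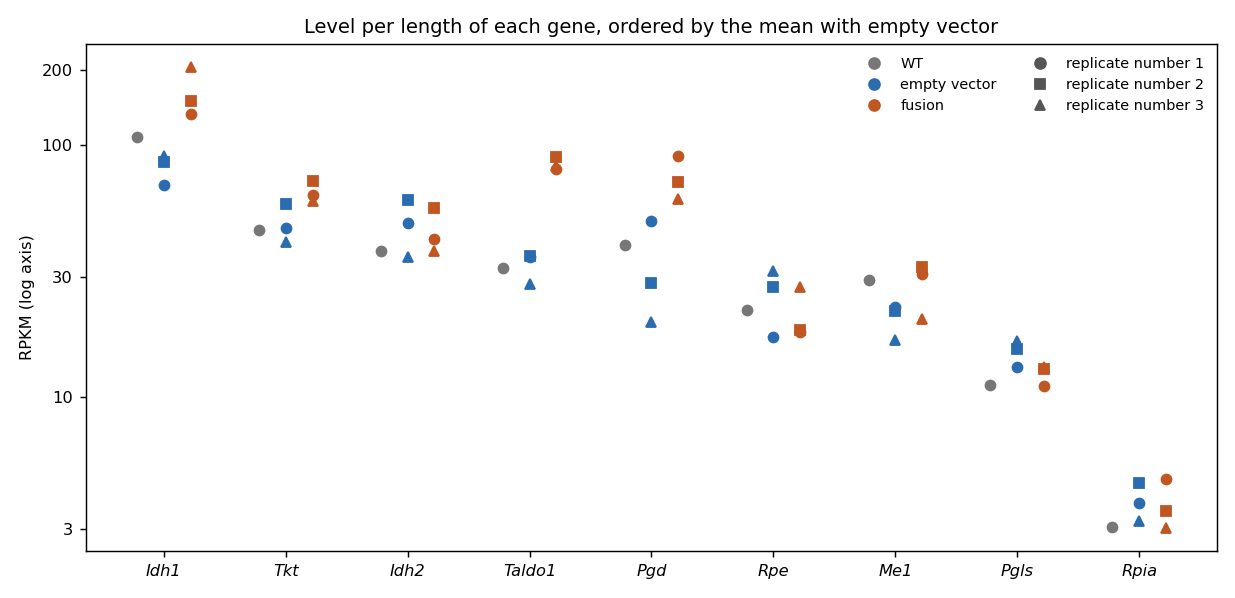
RPKM per union of exons (y axis, log scale) of each member in the WT library and the empty vector and fusion libraries, ordered by the mean with empty vector. Taldo1 stood at 33.4 RPKM with empty vector, below Idh1, Tkt and Idh2, and at 84.5 RPKM with the fusion, below Idh1 alone on this measure of length, and Rpia lay lowest in every library.

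The WT library stood on different sides of the groups for different members, and it has no replicate. Me1 in the WT library (112 CPM) lay above all 3 empty vector libraries and inside the fusion range. Idh1 at 300 CPM lay between the groups, above the highest empty vector library and below the lowest fusion library. Pgls (42.1 CPM) and Rpia (16.4 CPM) lay below all empty vector libraries and inside the fusion range. Taldo1 (70.9 CPM), Tkt (341 CPM) and Pgd (260 CPM) lay inside the empty vector range and below all fusion libraries. Rpe (68.7 CPM) and Idh2 (98.5 CPM) lay inside both ranges.

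In 1 fit over the 7 libraries, with the lone WT library taken to scatter as the other groups do, 0 members passed between empty vector and WT (edgeR adjusted p), as did 0% of all tested genes. At an unadjusted p under 0.05 there were 0 members, against 4.46% of tested genes, and DESeq2 called 0 members, against 0.221% of tested genes that were higher and 0.203% that were lower. With the block 0 members passed, against 0.0359% and 0.0837% of tested genes. In that fit 2 members had an unadjusted p under 0.05, as did 20.2% of tested genes. Those 2 were Idh1 (-0.65, 95% interval -1.01 to -0.30, adjusted p = 0.096) and Me1 (-0.35, -0.67 to -0.03, 0.22), both lower with empty vector than in the WT library. Without the block the largest estimates were -0.50 for Me1 (95% interval -1.26 to 0.26) and 0.44 for Pgls (-0.20 to 1.07), empty vector over WT. Between fusion and WT 0 members passed, against 0.341% of tested genes that were higher and 0.0956% that were lower. Against 7.67% of tested genes, 1 member had an unadjusted p under 0.05. That was Taldo1, with a log2 fold change of 1.37 (95% interval 0.71 to 2.04, edgeR adjusted p = 0.11, DESeq2 adjusted p = 0.00033). DESeq2 called no other member, against 2.19% of tested genes that were higher and 0.789% that were lower. With the replicate block 2 members rose over WT, Pgd (1.39, adjusted p = 0.03) and Taldo1 (1.39, 0.009), against 4.57% of tested genes that were higher and 5.25% that were lower. These comparisons share libraries with each other and with that of fusion against empty vector, so they are not independent of it. The block fits placed the WT library with number 1 by its label. The pairing check covered only fusion and empty vector libraries, so this placement was not tested. Without the block, the log2 fold change of Pgd over WT was 0.89 (95% interval -0.28 to 2.06).

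Among 12 other pentose phosphate and ribose genes, 10 passed the filter, and 1 rose and 0 fell (median log2 fold change 0.04), against 1.69% and 0.353% of all tested genes. The lists here were chosen with earlier results of these data known. The riser was H6pd, the hexose phosphate dehydrogenase that forms NADPH in the endoplasmic reticulum. It lay at 106, 149 and 84.2 CPM with empty vector and at 348, 473 and 260 CPM with the fusion. All fusion libraries lay above the empty vector range, at a log2 fold change of 1.67 (SE 0.30, edgeR adjusted p = 0.032, and 0.00026 with the block). Without the block it kept its call in 1 of 6 fits with a library removed (highest adjusted p 0.11). With the block Prps1, which makes phosphoribosyl pyrophosphate from ribose 5-phosphate, fell (57.2 ± 1.15 to 42.5 ± 6.23 CPM, adjusted p = 0.035). Without the block its log2 fold change was -0.43 (edgeR adjusted p = 0.47), and the block call ended with number 2 left out (0.23) or with numbers 1 and 2 only (0.052). The transketolase relatives Tktl1 and Tktl2 held 48 and 20 reads over the 7 libraries and did not pass the filter.

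Of 11 genes listed as other NADPH and NADP sources, 0 rose and 0 fell without the block (median 0.04), and DESeq2 called 1 lower, Aldh1l2. The list is broad and includes Me2, an enzyme that mainly uses NAD. With the block 2 rose and 2 fell, against 7.63% and 5.5% of all tested genes, and Aldh1l2 alone kept its call with number 2 left out. The fallers were mitochondrial folate enzymes: Aldh1l2, which makes NADPH from formyl-tetrahydrofolate, stood at 262 ± 75.7 CPM with empty vector and 129 ± 46.2 CPM with the fusion (-1.02 on the log2 scale, edgeR adjusted p = 0.21, and 0.005 with the block). Exons of D10Wsu102e on the other strand cover 1056 of its 7503 exon bases. Mthfd2 stood at 267 ± 56.1 to 186 ± 43.1 CPM (-0.52, 0.55, and 0.008 with the block). The risers were also mitochondrial, the transhydrogenase Nnt (109 ± 27.1 to 146 ± 50.8 CPM, edgeR adjusted p = 0.81, and 0.041 with the block) and malic enzyme Me2 (74.5 ± 29.2 to 98.2 ± 33.6 CPM, 0.87, and 0.022 with the block). Both of these calls ended with number 1 (adjusted p = 0.19 for Nnt and 0.082 for Me2) or number 2 (0.31 and 0.21) left out, and that of Mthfd2 with number 2 left out (0.092). Exons of a second annotated Nnt entry on the same strand cover 3339 of the 7037 exon bases of Nnt. Of 11 citrate, isocitrate and malate partners 0 rose and 0 fell (median 0.02), and 1 rose with the block, against 7.63% of all tested genes. With the block Idh3g, a subunit of the NAD-dependent isocitrate dehydrogenase, rose from 71.1 ± 5.94 to 102 ± 5.51 CPM (0.52, edgeR adjusted p = 0.26, and 0.0082 with the block, a call that ended with number 2 left out at 0.1).

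Of 10 genes listed as reductases that use NADPH, 3 rose and 0 fell (median 0.47). With the block 5 rose, and the shares of all tested genes that rose were 1.69% and 7.63%. The list includes Cyb5r3, which mainly uses NADH and gave no call in either fit (log2 fold change 0.17). With the block and number 2 left out 3 rose, without Nqo1 (adjusted p = 0.07) and Txnrd1 (0.073). Cbr3, a carbonyl reductase, lay at 16.9 to 23.4 CPM with empty vector and 174 to 377 CPM with the fusion (3.62, edgeR adjusted p = 0.0022). Cbr1, of the same family, lay at 26.8 to 33.7 and 108 to 179 CPM (2.29, 0.0042). Nqo1, a quinone reductase, lay at 46.1 to 71.9 and 230 to 343 CPM (2.24, 0.0052). Glutathione reductase Gsr (110 to 182 and 260 to 350 CPM, adjusted p = 0.066) and thioredoxin reductase Txnrd1 (226 to 420 and 383 to 636 CPM, 0.37) passed with the block (0.0028 and 0.0066). These 5 are widely listed as NRF2 targets.

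**Figure D5:**
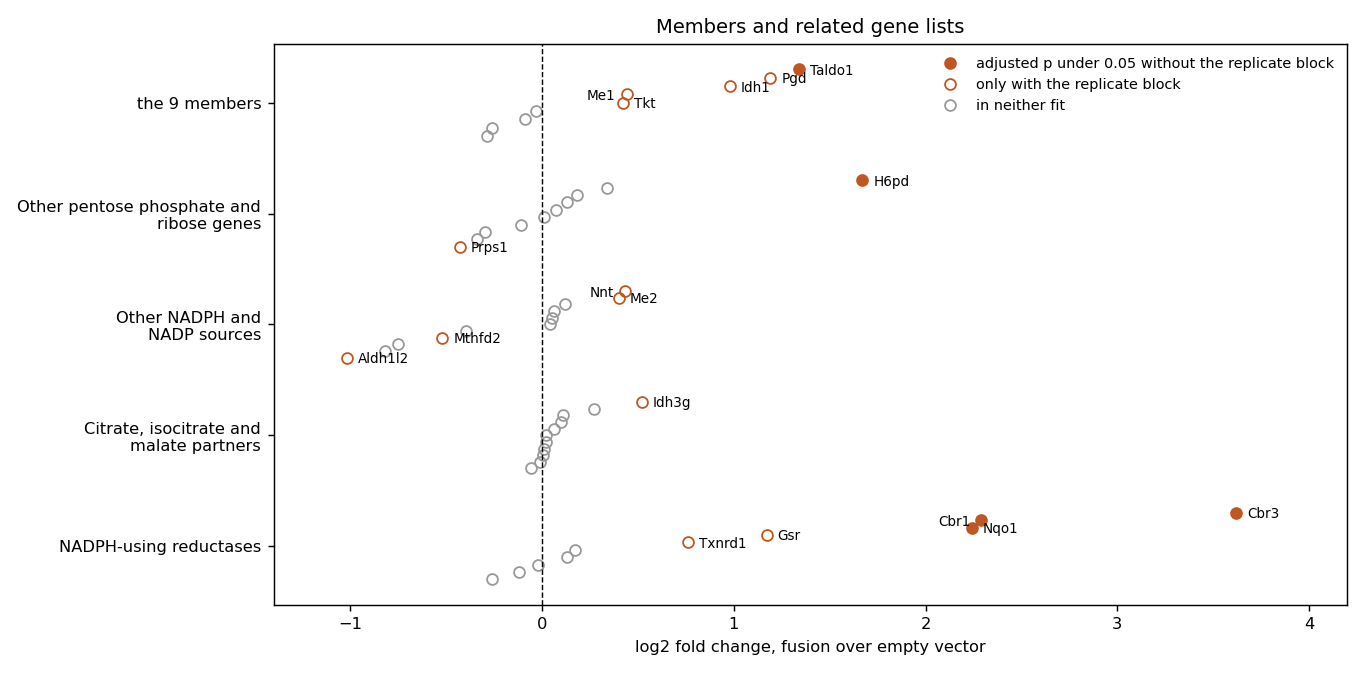
Log2 fold change, fusion over empty vector (x axis), of each tested gene of the 9 members and of 4 related lists (rows), with filled points past the adjusted threshold without the block and open coloured points past it with the block alone. Taldo1, H6pd, Cbr1, Nqo1 and Cbr3 are the filled points, and the citrate, isocitrate and malate partners lie between -0.06 and 0.52, with Idh3g highest.

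Across the 7 libraries the members fell into loose sets, given here as descriptions, since the points share replicate numbers and the fusion. Taldo1 correlated with Tkt (Pearson r = 0.89, log2 CPM, n = 7), Pgd (0.86) and Idh1 (0.83). Pgls ran against Me1 (-0.81) and Pgd (-0.79). Idh1 and Idh2 had r = -0.25. Of the tested genes outside the members, 4632404H12Rik (r = 0.995, n = 7), Slc22a23 (0.994) and Pafah2 (0.992) were most like the mean of Pgd and Pgls. Cybb (0.98), Slc7a4 (0.98) and Gm15470 (0.973) were most like the mean of the non-oxidative branch, but all 3 were low. Cybb reached at most 0.421 CPM in any library, Gm15470 at most 0.823 CPM and Slc7a4 at most 2.33 CPM. Nid1 (0.994), Rbpms (0.991) and Tns3 (0.987) were most like Me1. Ctsd, the lysosomal protease cathepsin D (0.995), Smad6 (0.983) and Gabarapl1 (0.983) were most like the mean of Idh1 and Idh2. That mean need not follow either gene, since Idh1 and Idh2 did not run together. The genes named for each branch were picked for the highest r among all tested genes outside the members. Values near 1 over 7 libraries therefore follow in part from that choice.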

How the data were processed

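Polyadenylated RNA of 7 libraries was sequenced as 50 bp single-end reads. The authors deposited raw read counts by gene, with a table for every lane. STAR, HTSeq and GRCm38 are named in the submitters' processing notes. Their versions, the annotation and the use of strand: not given in the sources used here. The 12 lane tables were summed to libraries (lanes of a library: chi-square per degree of freedom 0.9813 to 1.01). Rows that name no gene stayed out: 5.73 to 6.93% of a library fell outside genes, 1.22 to 1.48% was ambiguous, and 36.1 to 45.3% aligned to several places (most in replicate 3 of either group). Symbols matched 46005 of 46603 rows, and positions and lengths are from GENCODE M21.

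Fusion and empty vector were compared by edgeR 4.0.16 (R 4.3.3): TMM, filterByExpr with a minimum count of 10, robust quasi-likelihood F test, Benjamini-Hochberg adjustment at 0.05. WT comparisons used 1 fit of 7 libraries and the same 16731 genes, which every alternative but that without the filter also kept. SE and intervals follow from the F statistic. Fits were tested on simulated data. Same-numbered libraries deviated together (r = 0.535, 0.488 and 0.459 for numbers 1, 2 and 3, and -0.427 to -0.0497 between numbers), so the numbers were taken to pair the samples, by this check and no label. Patterns use log2(CPM + 0.5).

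The members, lists and alternatives were chosen with earlier results of these data known. Some genes of these lists are not reported here, and counts are over the genes that are. All members reported are named; of other lists, genes called in either fit; per branch, the 3 genes most correlated with it. Alternatives were DESeq2 1.42.0, its size factors, no filter, the block, all 7 libraries, and libraries or numbers left out.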

Additional observations from a re-analysis of the deposited data

How the results depend on the processing

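The number of members called higher with the fusion than with empty vector, 1 without the replicate block, was 5 with the replicate block, 5 with numbers 1 and 2 only and the replicate block, and 3 with DESeq2. With the block and number 1 or number 2 left out of both groups, alternatives chosen after earlier results were known, it was 3 and 2. Leaving out a single library without the block gave 0 to 2, with 0 when replicate 2 of either group was left out and 2 when empty vector replicate 1 was. For fits with libraries or numbers left out, the shares of all tested genes called are not given here. With DESeq2 size factors, no filter, all 7 libraries or numbers 1 and 2 only it was 1. No alternative called a member lower, and the replicate block changed no other call among the 9 members. Between fusion and WT, DESeq2 called 1 member and the block 2, and the other alternatives 0. Between empty vector and WT 0 were called in each.

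Of 135 values of the 9 members against empty vector, 7 turned sign, all in genes that did not pass. Rpia gave 0.01 with numbers 1 and 2 only, 0.10 with the block and number 2 left out, and -0.24 to 0.10 with a library left out (above 0 without replicate 2 of either group or fusion replicate 3). Idh2 gave -0.28 to 0.10 with a library left out (above 0 without empty vector replicate 2 or fusion replicate 3). Of 63 values each against WT, 4 turned for empty vector: Pgd (0.12) and Rpe (-0.19) with the replicate block, and Tkt (-0.04 to 0.19) and Taldo1 (-0.0025 to 0.14) with a library left out, each below 0 without empty vector replicate 2. For fusion 5 turned: Pgls (-0.03) and Me1 (0.08) with the replicate block, and with a library left out Me1 (-0.18 to 0.12) and Rpe (-0.27 to 0.05). The cause was not tested. Over all tested genes 341 were called without the block, 2196 with it and 922 by DESeq2. Depth is no limit for the members, which held at least 433 reads in every library.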
